A study of Mus musculus with 12 samples.

Results

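The 10 genes described here code for proteins of autophagy and of mitophagy, and they are the rows of the table with these gene symbols: Ulk1, Becn1, Map1lc3a, Map1lc3b, Gabarapl1, Sqstm1, Bnip3, Bnip3l, Park2 and Ctsl. All 10 were present among the 10187 genes of a table of normalized read counts from the triceps brachii, a muscle of the upper forelimb. A normalized read count is the number of sequencing reads of a gene after scaling of each sample to a common trimmed mean, without division by gene length. The 12 samples came from 12 male C57/BL6 mice in 4 groups of 3 (IW, IM, AW and AM), in which I and A stand for inactive and active and W and M for wild-type and myostatin-reduced. Every mouse, wild-type mice included, ate chow with 0.025% tamoxifen for 6 weeks in all before the trial. Tamoxifen activates Cre recombinase, and this depleted myostatin only where exon 3 of the Mstn gene was floxed, that is, in IM and AM mice. Which promoter drove the recombinase, and whether wild-type mice carried it, is not given in the sources used here. At 6 months of age the AW and AM mice moved to individual cages with a running wheel for 12 weeks, so wheel running and single housing cannot be told apart in the active groups. Genotypes were matched by the study for running behaviour.

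The labels and the tissue were checked before the genes were described. Mstn, which codes for the growth inhibitor myostatin, had 79.7 to 138 normalized reads in the 6 wild-type mice and 8.70 to 21.6 in the 6 myostatin-reduced mice. All 9 fast skeletal muscle markers were in the table, and their summed normalized read count was 153951 to 228122 per mouse. The 11 slow-fibre markers summed to 78.3 to 1831, with a wide spread between mice of the same group in IW, AW and AM, and this touches the Sqstm1 result. The value of 1 read, found from the steps between low values, gave an estimate of 9024003 to 12184685 reads per mouse counted in the genes of the table. Reads outside these genes are not part of this estimate.

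Autophagy encloses cytoplasm in a double membrane, the autophagosome, and delivers it to lysosomes for degradation. The kinase Ulk1 starts the process, the Becn1 complex makes the lipid signal for membrane growth, small ubiquitin-like proteins of the LC3 and GABARAP families are attached to the growing membrane, and cargo receptors such as Sqstm1 (p62) tie ubiquitinated cargo to them. Mitophagy is the same route taken by mitochondria, which are marked by receptors in their outer membrane (Bnip3 and Bnip3l) or by the ubiquitin ligase parkin (Park2). In skeletal muscle autophagy takes part in the turnover of mitochondria and in the loss of protein during fasting and disuse, and its activity is set largely at the protein level, which a count of messages does not measure.

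Wheel running was accompanied by a higher level of the lysosomal protease gene Ctsl and a lower level of the cargo receptor gene Sqstm1, while the messages of the starting kinase, the LC3 and GABARAP proteins and the mitophagy receptors did not pass the test. Differences between active and inactive mice were tested in limma on log2(value + 1), as the mean of the differences in both genotypes, and the threshold for a call was an adjusted p-value of 0.05 over the 7247 genes whose mean reached 10. Of the 10 genes, 9 passed this minimum and Park2 did not. Ctsl was called higher and Sqstm1 was called lower, which is 2 of 9 genes (22.2%), against 14.5% of all genes tested (7.99% higher and 6.51% lower). With so few genes this share does not set them apart from the background. The median log2 change of the 9 genes was 0.0042, beside -0.022 over all genes tested. An exact permutation test of activity labels within genotypes gave a two-sided p-value under 0.05 for 4 of the 9 genes, Ulk1 and Map1lc3a in addition to the called genes, without adjustment for the number of genes. These are the same 4 that limma passed before adjustment, when 30.2% of all genes tested were under 0.05. In bulk muscle, fewer cells of a type and less RNA per cell cannot be told apart.

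The sequences before the transcript start were read for the genes with a called change, Ctsl and Sqstm1, and for Bnip3, the one other gene with a match to a motif searched. They come from a table of RefSeq promoters (build GRCm38.p6), in which 6 of the 10 genes were matched, and each of the 250 bases matched build NCBIM37 exactly and at 1 place, whose coordinates are given. The search covered both strands of the 250 bases before the start for CACGTG (the E-box, the core of the sites bound by Tfeb and its relatives), GTAAACA (bound by FoxO factors) and TGACNNNGC (the core of the antioxidant response element). Capitals mark matches. The RefSeq start of Ctsl lies upstream of that of the gene model whose position is given for this gene.
Ctsl promoter, chr13:64471829-64472078, minus strand: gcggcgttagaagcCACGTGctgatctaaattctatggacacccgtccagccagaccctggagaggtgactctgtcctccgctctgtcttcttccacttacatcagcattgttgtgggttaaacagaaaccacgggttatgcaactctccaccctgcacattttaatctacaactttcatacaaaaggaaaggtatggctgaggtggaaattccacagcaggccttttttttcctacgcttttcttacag
Sqstm1 promoter, chr11:50024323-50024572, minus strand: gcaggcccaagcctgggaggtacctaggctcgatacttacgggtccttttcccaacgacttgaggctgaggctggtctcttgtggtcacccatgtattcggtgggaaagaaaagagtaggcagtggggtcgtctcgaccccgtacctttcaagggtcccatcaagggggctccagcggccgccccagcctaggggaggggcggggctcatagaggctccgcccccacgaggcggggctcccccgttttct
Bnip3 promoter, chr7:146101190-146101439, minus strand: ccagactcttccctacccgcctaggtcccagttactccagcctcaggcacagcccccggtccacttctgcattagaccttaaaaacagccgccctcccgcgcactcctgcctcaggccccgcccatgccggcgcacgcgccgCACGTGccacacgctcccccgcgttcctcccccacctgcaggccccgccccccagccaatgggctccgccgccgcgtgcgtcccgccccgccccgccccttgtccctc
CACGTG was found in Ctsl, starting 236 bases before the start, and in Bnip3, starting 108 bases before it. It is held by 6.02% of 32851 promoters of this length. GTAAACA and TGACNNNGC, found in 3.17% and 10.2% of promoters, were not in these windows for any of the 6 genes. The longer site with CACGTG at its centre, found in 0.240% of promoters, was not in these windows for any of the 6 genes either. The matches in Ctsl and Bnip3 are thus to the 6-base core alone. A match of letters describes the sequence only.

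**Figure D1:**
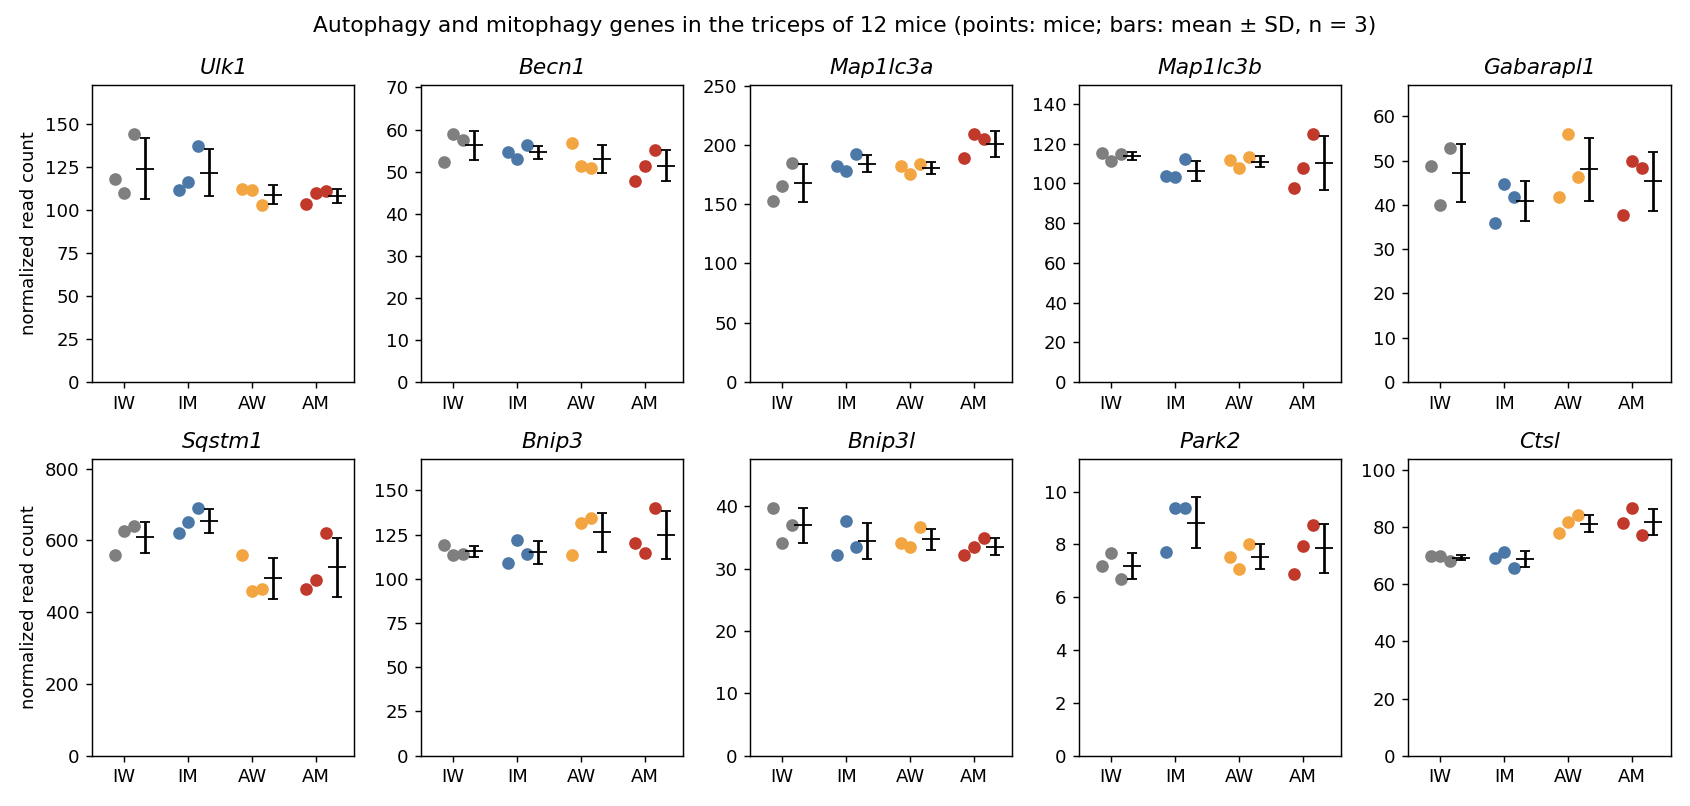
Normalized read count (vertical axes, from 0) of each of the 10 genes in every mouse (points), by group (I inactive, A active, W wild-type, M myostatin-reduced), with the mean and SD of 3 mice beside them. For Ctsl the 6 active mice lie above the 6 inactive mice, and for Sqstm1 the active groups are lower with AM mouse 3 as the highest active value.

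Ulk1, the kinase that starts autophagosome formation, lies at chr5:111213507-111239116, minus strand (NCBIM37). Ulk1 was at 118, 110.2 and 144 in IW mice, 112, 116 and 137 in IM mice, 112, 112 and 103 in AW mice and 104, 110.1 and 111 in AM mice (normalized reads). IW mouse 3 and IM mouse 3 were the highest, and the active groups lay within 103 to 112. Within myostatin-reduced mice every active value was below every inactive one, a separation seen in 15.2% of genes tested. The activity change of -0.17 (95% interval -0.32 to -0.016) did not pass the test over all genes (limma adjusted p = 0.127, exact permutation p = 0.0350 without adjustment). Becn1 (chr11:101147266-101163600, minus strand, NCBIM37), whose protein beclin 1 belongs to the lipid kinase complex of membrane nucleation, was steadier. Becn1 was at 52.2, 58.8 and 57.6 in IW mice, 54.6, 53.0 and 56.2 in IM mice, 56.8, 51.4 and 50.9 in AW mice and 47.7, 51.3 and 55.1 in AM mice (normalized reads), and its activity change was -0.086 (95% interval -0.20 to 0.029, limma adjusted p = 0.293). All 12 Becn1 values lay between 47.7 and 58.8, with the groups overlapping. With a score of slow-fibre genes, defined with Sqstm1, as a covariate, its activity change was -0.013 (limma adjusted p = 0.916).

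The LC3 and GABARAP proteins are joined to lipid on the autophagosome and hold cargo receptors there. Map1lc3a (chr2:155102033-155103809, plus strand, NCBIM37) had its lowest value in an IW mouse and its highest in an AM mouse. Map1lc3a was at 153, 165 and 185 in IW mice, 182, 178 and 192 in IM mice, 182, 175 and 184 in AW mice and 189, 209 and 205 in AM mice (normalized reads). Every AM mouse was above every AW mouse, which was so in 7.73% of genes tested, whereas IM and IW mice overlapped. The genotype change was 0.15 (95% interval 0.032 to 0.26) and the activity change 0.12 (95% interval 0.0039 to 0.23). Neither was called over all genes (limma adjusted p = 0.123 and 0.153), and the exact permutation p-values without adjustment were 0.0250 and 0.0450. Pigu overlaps this gene on the opposite strand and had a mean of 24.6 normalized reads. Cntd1, Gm20388 and 1700101I11Rik overlap Becn1, Map1lc3b and Gabarapl1 in the annotation and may share reads with them, and their part in these values was not tested.

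Map1lc3b (chr8:124114368-124121947, plus strand, NCBIM37), the form most often used as a marker of autophagosomes, showed no such order. Map1lc3b was at 115, 111 and 115 in IW mice, 104, 103 and 112 in IM mice, 112, 108 and 113 in AW mice and 97.7, 108 and 125 in AM mice (normalized reads). The lowest and the highest of the 12 values were both from AM mice. Its activity change was 0.0042 with a 95% interval of -0.12 to 0.13, and smaller differences than these bounds were not resolved. Gabarapl1 (chr6:129483218-129492349, plus strand, NCBIM37) was the most variable of the 9 genes within groups, with an SD of 0.20 on the log2 scale. Gabarapl1 was at 48.9, 40.0 and 52.8 in IW mice, 36.0, 44.8 and 41.8 in IM mice, 41.9, 55.9 and 46.2 in AW mice and 37.6, 49.99 and 48.3 in AM mice (normalized reads). The lowest value was in IM mouse 1 and the highest in AW mouse 2, with all groups overlapping. Its changes of 0.081 with activity and -0.14 with genotype did not pass the test (limma adjusted p = 0.608 and 0.428).

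Sqstm1 codes for p62, which binds ubiquitin on cargo and LC3 on the autophagosome and is itself degraded with the cargo. The gene lies at chr11:50012868-50024329, minus strand (NCBIM37). Sqstm1 was at 559, 626 and 640.1 in IW mice, 621, 652 and 689.6 in IM mice, 559.9, 458 and 464 in AW mice and 465, 490.1 and 619 in AM mice (normalized reads). Within myostatin-reduced mice every active mouse was below every inactive mouse, by a margin of 619 against 621, as in 15.2% of genes tested, whereas AW mouse 1 and IW mouse 1 overlapped. The mean fell from 631 ± 43.0 in inactive to 509 ± 65.9 in active mice (SD, n = 6). The log2 change was -0.32 (SE 0.0783, limma adjusted p = 0.0197, exact permutation p = 0.0100). It was -0.30 in wild-type and -0.33 in myostatin-reduced mice, neither of them called alone (limma adjusted p = 0.219 and 0.0865), although the latter was called without AM mouse 3 (adjusted p = 0.0280). The call over both genotypes was narrow. It was lost without IW mouse 2 (adjusted p = 0.0519), IM mouse 3 (0.0518), AW mouse 2 (0.0554), AW mouse 3 (0.0575) or AM mouse 2 (0.0520), while the change itself stayed between -0.38 and -0.28. 3010026O09Rik overlaps Sqstm1 on the opposite strand, and whether strand was used in the counting is not given, and its own mean was 6.27 normalized reads.

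The lowest Sqstm1 values came from active mice with a high level of slow-fibre genes. A slow-fibre score was computed for each mouse by subtracting from the log2 value of each of 11 slow-fibre genes that gene's mean over mice and averaging the results. It ran from -2.23 in IM mouse 1 to 2.49 in AW mouse 3. The 4 mice with the lowest Sqstm1 (AW mice 2 and 3, AM mice 1 and 2) were among the 5 mice with the highest score, and the remaining one of those 5, IW mouse 1, had 559. The active mice with the lowest scores, AM mouse 3 and AW mouse 1, had the highest Sqstm1 values of their groups, 619 and 559.9. In a limma model with a mean for each group and the score, fitted to all genes after the data had been seen, Sqstm1 fell by 0.073 on the log2 scale per unit of score (SE 0.0182, adjusted p = 0.0385). It was the 1 called gene of the 9, against 5.84% of all genes tested. The next smallest p-value was that of Becn1, with -0.041 (adjusted p = 0.130). The Sqstm1 call in this model did not hold without IW mouse 1 (0.0967), IM mouse 2 (0.0602), AW mouse 1 (0.250), AW mouse 2 (0.0857), AW mouse 3 (0.0785), AM mouse 2 (0.0843) or AM mouse 3 (0.147). When the score was included, the activity change of Sqstm1 became -0.19 and was no longer called (limma adjusted p = 0.0953). The genes of the score were themselves higher on average in active mice. All 11 had positive activity changes (median 1.80), with 1 called higher in limma (9.09%, against 7.99% of all genes tested). All 11 had negative genotype changes (median -1.30), with 0 called, against 5.78%. The model thus takes out part of the activity contrast, and score and activity cannot be told apart in it. Fast myosin genes also moved with activity, Myh4 at -0.57 (limma adjusted p = 0.0127), Myh1 at 1.51 (adjusted p = 0.00190) and Myh2 at 2.04 (adjusted p = 0.0251), while the other 6 fast muscle markers were not called. The part of the fast myosin genes in the Sqstm1 difference was not tested.

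**Figure D2:**
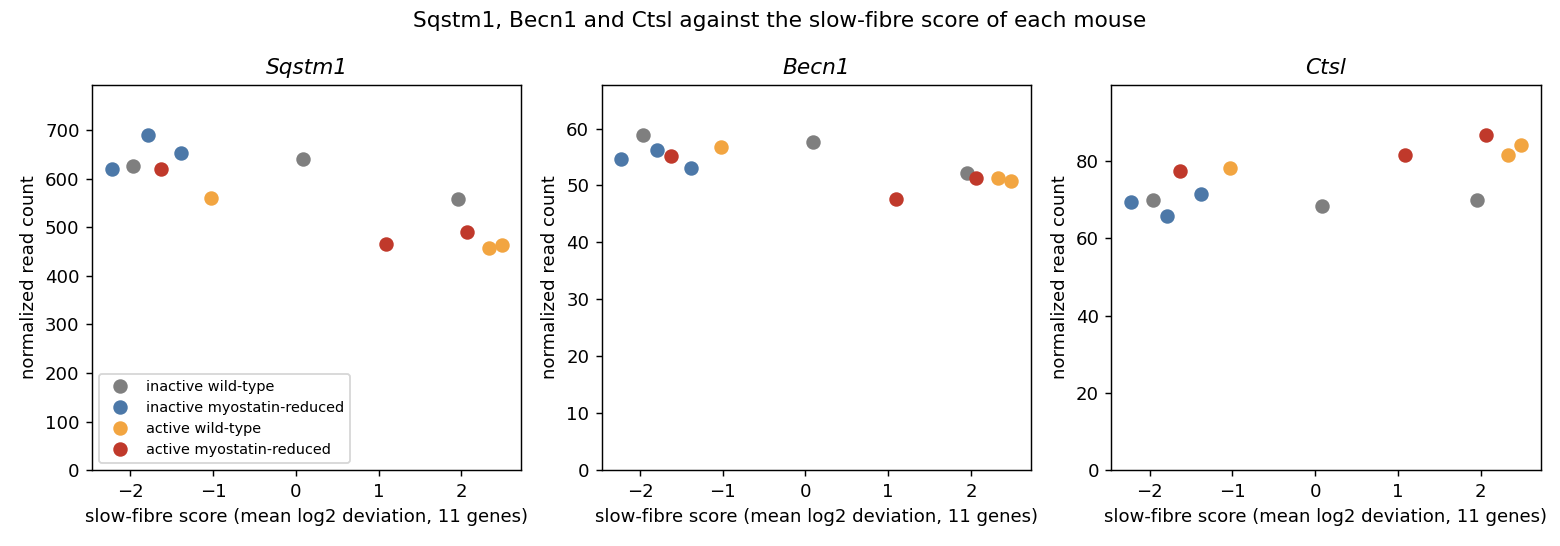
Normalized read counts of Sqstm1, Becn1 and Ctsl (vertical axes, from 0) against the slow-fibre score of the same mouse (horizontal axis, mean log2 deviation over 11 genes), coloured by group. Among active mice Sqstm1 is lowest at high scores, and AM mouse 3 and AW mouse 1, with low scores, are the highest, while Ctsl separates active from inactive mice at low and high scores.

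Bnip3 and Bnip3l code for related receptors in the outer mitochondrial membrane that bind LC3 and GABARAP proteins directly. Bnip3 (chr7:146082519-146101202, minus strand, NCBIM37) exceeded 130 normalized reads in 3 mice, all of them active. Bnip3 was at 119, 113 and 114 in IW mice, 109, 122 and 114 in IM mice, 113, 131 and 134 in AW mice and 120.2, 114 and 139.9 in AM mice (normalized reads). The remaining active mice overlapped the inactive ones, and the activity change was 0.12 (95% interval -0.014 to 0.25, limma adjusted p = 0.211). Bnip3l (chr14:67604076-67627714, minus strand, NCBIM37) lay between 32.1 and 39.7 in all mice, with group means of 37.0 ± 2.80 in IW, 34.5 ± 2.91 in IM, 34.8 ± 1.67 in AW and 33.6 ± 1.38 in AM mice (SD, n = 3). Its activity change was -0.060 (95% interval -0.18 to 0.063). With genotype the change was -0.013 for Bnip3 (95% interval -0.15 to 0.12) and -0.074 for Bnip3l (95% interval -0.20 to 0.050), and neither receptor gene was called.

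Park2, which codes for the ubiquitin ligase parkin, was covered by an estimated 64.0 to 103 reads per mouse. Its mean of 7.85 was under the minimum for testing. The annotation holds 2 gene models of this name on chromosome 17 (NCBIM37), from 11033258 to 11133829 and from 11259991 to 12254519. Park2 was at 7.19, 7.66 and 6.68 in IW mice, 7.70, 9.37 and 9.37 in IM mice, 7.53, 7.06 and 8.02 in AW mice and 6.89, 7.93 and 8.75 in AM mice (normalized reads). Every IM mouse was above every IW mouse, by as little as 7.70 against 7.66, a separation seen in 11.7% of all genes in the table. AM and AW mice overlapped. In a fit without the minimum, over 10187 genes, the genotype change was 0.15 (limma adjusted p = 0.339), that within inactive mice 0.26 (adjusted p = 0.306) and the activity change -0.043 (adjusted p = 0.779).

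Ctsl codes for cathepsin L, a cysteine protease that breaks down proteins inside lysosomes, and lies at chr13:64464522-64471614, minus strand (build NCBIM37, mm9), with 8 exons in its longest transcript. Ctsl was at 69.8, 70.0 and 68.3 in IW mice, 69.4, 71.5 and 65.8 in IM mice, 78.1, 81.7 and 84.1 in AW mice and 81.6, 86.7 and 77.4 in AM mice (normalized reads). Every active mouse was above every inactive mouse, the lowest active value being 77.4 and the highest inactive value 71.5. Complete separation upwards within both genotypes occurred in 4.84% of genes tested. The mean rose from 69.1 ± 1.94 in inactive to 81.6 ± 3.52 in active mice (SD, n = 6), an increase of 18.0%. On the log2 scale the change was 0.24 (SE 0.0445, limma adjusted p = 0.00530), and the exact permutation p was 0.00500, the smallest that 400 arrangements can give. The change was 0.23 in wild-type (limma adjusted p = 0.123) and 0.25 in myostatin-reduced mice (limma adjusted p = 0.0342), and the difference between these was 0.021 (95% interval -0.17 to 0.21). The call in myostatin-reduced mice was lost without IM mouse 1 (adjusted p = 0.0919), IM mouse 2 (0.0675), IM mouse 3 (0.116) or AM mouse 2 (0.154), and also with only IM and AM mice in the fit (0.0811), whereas the call over both genotypes held in each of the 12 limma fits that left out a mouse. Within groups Ctsl varied little, with an SD of 0.058 on the log2 scale against a median of 0.10 in the 500 genes nearest to it in level.

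Cathepsin L is made by many cell types, so markers of other cells were set beside it. Of the 6 endothelial markers 4 were called higher in active mice in limma (66.7%, against 7.99% of all genes tested). Within myostatin-reduced mice 4 were called higher, against 5.31% of all genes. Within wild-type mice 0 were called, against 0.0276%, and 0 were under 0.05 before adjustment, against 14.7%. The sum of the 6 was 254 to 327 in IW, 222 to 235 in IM, 252 to 429 in AW and 288 to 481 in AM mice. The macrophage sum, over the 8 of 9 markers in the table (Cd68 is not among them), was 81.7 to 87.9 in IW, 78.1 to 127 in IM, 86.3 to 102 in AW and 70.8 to 98.7 in AM mice. Of the 2 macrophage markers that passed the minimum mean, 0 were called in limma, against 14.5% of all genes tested over both genotypes. Before adjustment 0 were under 0.05 over both genotypes, against 30.2%, and 1 (Lyz2, 0.41) within wild-type mice, against 14.7%. Neither list had a marker at 0. All 5 connective tissue markers had negative activity changes (median -0.24). Of these 0 were called in limma, against 14.5% of all genes tested, and 3 were under 0.05 before adjustment, against 30.2%. Of the adipocyte markers 1 was tested, and it was not called. The part of these cell types in the Ctsl difference was not tested. After the slow-fibre score described above was added as a covariate, the Ctsl change was 0.20 and the call held over both genotypes (limma adjusted p = 0.0348), whereas that within myostatin-reduced mice was lost (0.20, limma adjusted p = 0.145). As said for Sqstm1, the genes of the score were themselves higher on average in active mice.

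**Figure D3:**
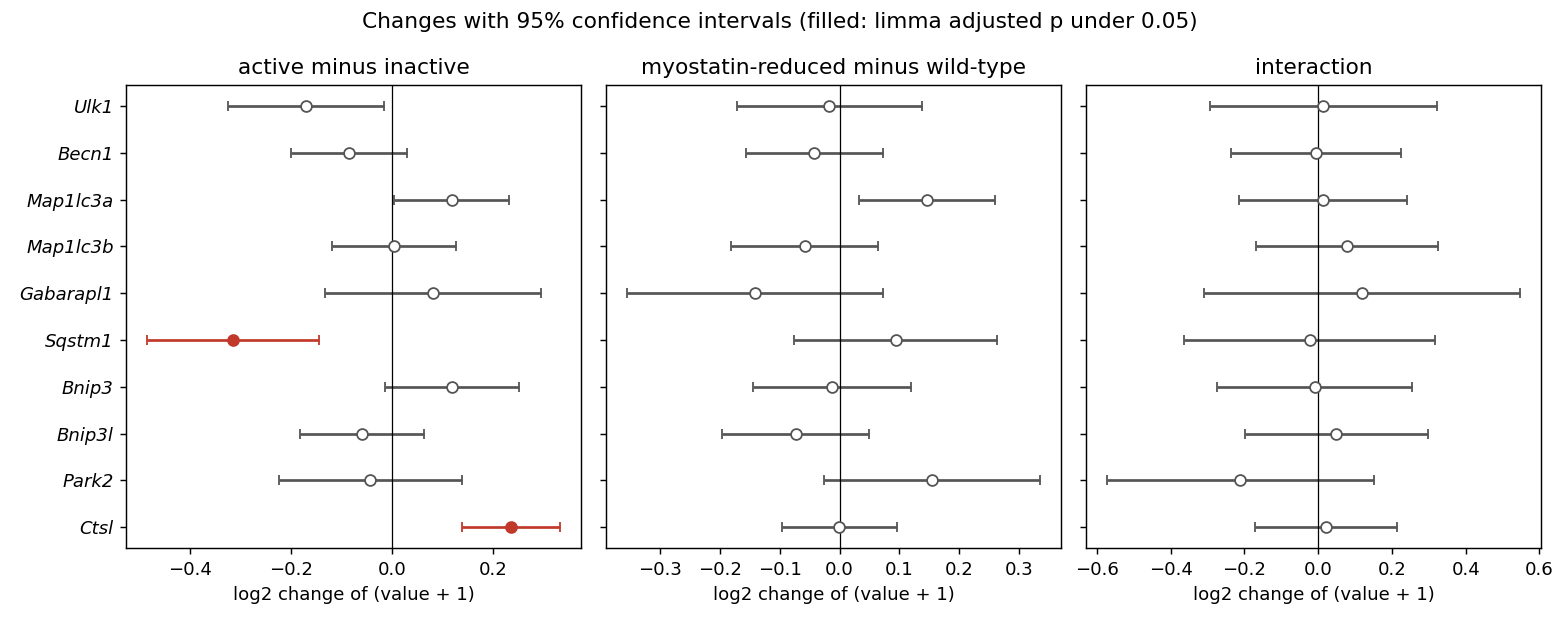
Log2 change of (value + 1) with its 95% confidence interval for each gene in the comparisons of active with inactive and of myostatin-reduced with wild-type mice and in the interaction, filled where the limma adjusted p-value was under 0.05. Park2 comes from the fit without a minimum mean. Only Sqstm1 and Ctsl are filled, both for activity.

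Reduction of myostatin was not accompanied by a called change in any of the genes. In limma 0 of the 9 tested genes were called for genotype, against 5.78% of all genes tested (3.57% higher and 2.21% lower). Before adjustment 1 of the 9 (Map1lc3a, also under 0.05 by the exact permutation test) and 22.5% of all genes were under 0.05. The changes lay between -0.14 for Gabarapl1 and 0.15 for Map1lc3a, and the limma adjusted p-values between 0.123 and 0.997. Their median absolute log2 change was 0.058, beside 0.083 over all genes tested. Ctsl was nearly level between genotypes, at 75.3 ± 6.83 in wild-type and 75.4 ± 7.93 in myostatin-reduced mice (normalized reads, SD, n = 6), and the 95% interval of its log2 change was -0.10 to 0.10. For Sqstm1 the means were 551 ± 77.4 and 589.5 ± 90.7, with an interval of -0.076 to 0.26. Within inactive mice the genotype changes called 0 of 9 genes in limma, against 2.51% of all genes, and within active mice likewise 0, against 0.207%. Before adjustment 0 of the 9 were under 0.05 in either, against 17.4% of all genes within inactive and 12.3% within active mice.

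The interaction, which asks whether the genotype change depended on activity, was called in 0 of the 9 genes and in 0% of all genes in limma, while before adjustment 0 of the 9 and 297 of all genes were under 0.05. The interactions ranged up to 0.12 in size, in Gabarapl1, whose 95% interval was -0.31 to 0.55. For Ulk1 the interval was -0.29 to 0.32 and for Sqstm1 -0.36 to 0.32, so interactions of a size similar to the Sqstm1 activity change were not resolved with 3 mice per group. Within wild-type mice the activity change was called in 0 of the 9 genes in limma, against 0.0276% of all genes, and before adjustment 2 of the 9 (Ctsl and Sqstm1) and 14.7% of all genes were under 0.05. Within myostatin-reduced mice it was called in 1 (Ctsl), against 7.84%.

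Levels were compared between genes only after division by the length of the longest annotated transcript, in normalized reads per kilobase over all 12 mice (mean ± SD). Sqstm1 was the highest at 213 ± 31.0, followed by Map1lc3a at 165 ± 13.8. Their ranges over mice overlapped, at 171 to 258 and 137 to 188. Bnip3 (68.6 ± 5.51) and Map1lc3b (64.5 ± 4.07) came next and did not differ beyond their spread. Ctsl followed at 38.2 ± 3.58, then Gabarapl1 at 25.7 ± 3.47 and Ulk1 at 22.2 ± 2.39, which overlapped. Becn1 (12.3 ± 0.750) and Bnip3l (10.7 ± 0.721) were the lowest of the genes with a single gene model. With the length of all annotated exons in place of the longest transcript, Map1lc3b (64.5 per kilobase) stood above Bnip3 (53.2) and Bnip3l (9.05) above Becn1 (7.61), so these orders depend on the gene model.

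The other genes of the pathway were taken from lists by role. Apart from the 10 genes above they held 102 genes, of which 100 were in the table and 91 were tested. With activity 7 were called higher and 5 lower, which is 13.2% against 14.5% of all genes tested, and the median log2 change was -0.028 beside -0.022. The share of calls was thus close to the background, with genes on both sides, and no single list was tested against the background. The 7 called higher include Atg10, which passed the minimum mean of 10 only through the active mice and stands as a description. With genotype 1 was called higher and 3 lower (4.40%, against 5.78%).

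**Figure D4:**
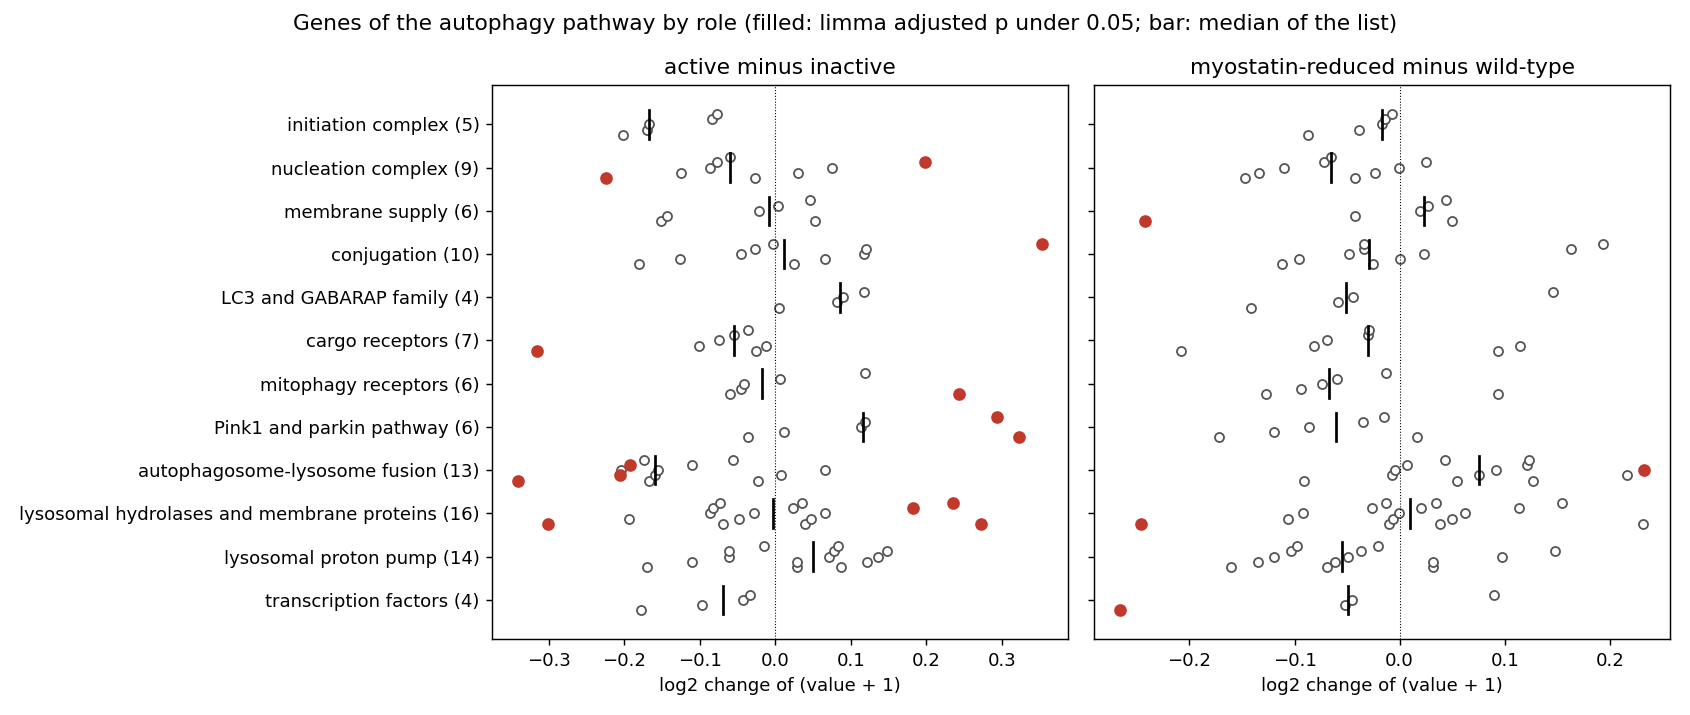
Log2 change of (value + 1) of every tested gene in the 12 role lists, with the number tested in brackets, for active minus inactive (left) and myostatin-reduced minus wild-type mice (right). Filled points passed a limma adjusted p-value of 0.05 and bars mark list medians. The filled point of the conjugation list for activity is Atg10, which passed the minimum mean only through the active mice. Called genes lie on both sides of 0 for activity, with fusion genes to the left and genes of the Pink1 and parkin list to the right.

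The counts for activity in each list stand against the 14.5% of all genes tested that were called and the 30.2% that were under 0.05 before adjustment. In the initiation list, 0 of 5 genes were called for activity in limma, with 2 at an unadjusted p-value under 0.05, although all 5 values were negative and the median was -0.17. Ulk2, the close relative of Ulk1, was at -0.20 (adjusted p = 0.0607). Of 9 tested nucleation genes 2 were called (22.2%). Sh3glb1, which bends membranes, rose by 0.20 (limma adjusted p = 0.0118) and the inhibitor Rubcn (listed as 1700021K19Rik) fell, at -0.22 (adjusted p = 0.0295). In the conjugation list Atg10 alone of 10 genes was called, at 0.35 (limma adjusted p = 0.0444). Its mean was 9.62 normalized reads without a wheel and 12.5 with one, so it passed the minimum mean of 10 only through the active mice, and its value stands as a description. Of 7 cargo receptors Sqstm1 was the only call for activity, and the related receptor Nbr1 was at -0.055 (limma adjusted p = 0.570). The mean of Gabarap, which was not among the 10 genes, was 114 in inactive and 121 in active mice (adjusted p = 0.173).

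On the mitochondrial side, genes outside the core receptors were called. Phb2, a prohibitin of the inner mitochondrial membrane, rose by 0.24 with activity (limma adjusted p = 0.00898). It was the 1 call of 6 tested genes in the mitophagy receptor list (16.7%, against 14.5% of all genes tested). In the Pink1 and parkin list 2 of 6 tested genes were called higher (against 7.99% of all genes tested), Mfn1 by 0.32 (adjusted p = 0.0101) and Rhot2 by 0.29 (adjusted p = 0.00190). Their relatives Mfn2, at 0.011 (adjusted p = 0.895), and Rhot1, at -0.036 (adjusted p = 0.645), were not called. Mfn1 codes for a fusion protein of the outer membrane and Rhot2 for a protein that links mitochondria to transport motors, and both also serve mitochondria outside mitophagy. Pink1, the kinase that recruits parkin, was at 0.11 (limma adjusted p = 0.202), with means of 759 and 820.1 normalized reads in inactive and active mice.

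In the list of autophagosome-lysosome fusion, of 13 genes tested 3 were called lower with activity (23.1%, against 14.5% of all genes tested in either direction and 6.51% lower). The other 10 were not called, 2 of them with positive values, and the median of the list was -0.16 beside -0.022 over all genes. Whether the list differs from the background was not tested. The called genes were Epg5 (listed as 5430411K18Rik), at -0.34 (limma adjusted p = 0.0138), the autophagosome syntaxin gene Stx17, at -0.21 (adjusted p = 0.0286), and the small GTPase gene Rab7, at -0.19 (adjusted p = 0.0353). Among 16 tested hydrolases and membrane proteins of the lysosome, 3 were called higher and 1 lower (25.0%, against 14.5% of all genes tested and 7.99% called higher). Beside Ctsl these were cathepsin B (Ctsb), which rose by 0.18 from a mean of 305 to 347 (limma adjusted p = 0.0188), and cathepsin F (Ctsf), which rose by 0.27 (adjusted p = 0.0122). Gaa, the lysosomal enzyme that degrades glycogen, fell, at -0.30 (adjusted p = 0.0374). Cathepsin D (Ctsd) was at 0.047 (adjusted p = 0.432), and of the 14 tested genes of the lysosomal proton pump 0 were called in limma, with 2 under 0.05 before adjustment (30.2% of all genes).

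The genotype calls over both activity levels in the wider lists were Lamp2, a lysosomal membrane protein needed for fusion, at -0.25 (limma adjusted p = 0.0111), Wdr45, whose protein binds phosphoinositide lipids, at -0.24 (adjusted p = 0.0332), the transcription factor gene Foxo4 at -0.27 (adjusted p = 0.00604) and Tecpr1, a tether of autophagosomes and lysosomes, at 0.23 (adjusted p = 0.0135). The first 3 were lower and Tecpr1 was higher in myostatin-reduced mice. Lamp2 was at 104 ± 5.24 in wild-type and 87.7 ± 3.39 in myostatin-reduced mice (normalized reads, SD, n = 6). Within inactive mice 2 of the 91 genes were called in limma (2.20%, against 2.51% of all genes), both lower in IM than in IW mice. The first was in the transcription factor list. The other was the cargo receptor gene Optn, at -0.40 (adjusted p = 0.0471). Over both activity levels Optn was at -0.21 (limma adjusted p = 0.0932) and its interaction was not called (adjusted p = 0.890). Tfeb (listed as Tcfeb), the regulator of lysosomal genes, was not called for activity or genotype, at -0.18 and -0.045 (limma adjusted p = 0.157 and 0.792).

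The genes whose pattern was most like each of these genes were found by Pearson's r of the log2 values over the same 12 mice. Candidates were the 2556 genes whose mean reached 50. These values describe the 12 samples, which share their groups, and carry no test. The nearest to Sqstm1 were Atp2a1 (0.960), Aldoa (0.957) and Pfkm (0.954), that is, the calcium pump of fast fibres and enzymes of glycolysis. For Ctsl they were Egln3 (0.959), Prdx5 (0.954) and Bola3 (0.953), of which Egln3 codes for an oxygen-sensing hydroxylase and Prdx5 for a peroxidase. Those of Ulk1 were Ap3d1 (0.863), Atg9a (0.836) and Flot2 (0.810), and Atg9a carries lipid to the growing autophagosome. Becn1 was most like Sep15 (0.932), Rtn2 (0.916) and Tecr (0.916), Map1lc3a most like Prkaca (0.914), Aes (0.893) and Smtn (0.885) and Map1lc3b most like Ppp1ca (0.911), Acyp2 (0.859) and Gnas (0.834). Gabarapl1 was nearest to Taz (0.828), Mlycd (0.821) and Pink1 (0.820), the last of which is the parkin kinase gene. Bnip3 was nearest to Ttc35 (0.903), Rab11a (0.851) and Ccni (0.850), and Bnip3l to 9330159F19Rik (0.821), Calcoco1 (0.780) and Gpx3 (0.754), Calcoco1 being a cargo receptor of the list above. Among the 9 genes themselves the r over all 12 mice and the r of deviations from the group means were 0.782 and 0.904 for Sqstm1 and Becn1, -0.873 and -0.719 for Sqstm1 and Ctsl, and 0.246 and 0.594 for Bnip3 and Bnip3l. These pairs are examples, and in others the values differed more. They were -0.025 and 0.680 for Ulk1 and Map1lc3a, and -0.062 and 0.510 for Map1lc3a and Sqstm1.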

How the data were processed

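Polyadenylated triceps RNA of 12 mice was sequenced as single-end reads. The authors mapped them to mm9 with CASAVA, whose version is not stated, counted reads in RefSeq exons, summed these to genes and deposited a signal, the normalized read count, scaled to an equal trimmed mean in all samples. Whole reads were not recovered from the values (88.8% to 91.2% of values under 5 were whole multiples of the value of 1 read, but 37.2% to 48.3% of those from 50 to 100), so no count model was used. A floor of 3 reads was 0.231 to 0.316 normalized reads, for counting error only.

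The 12 columns were matched to samples by name, no pair of columns being identical, and groups came from the titles. Genes with a mean of at least 10 (7247 of 10187) were tested on log2(value + 1), which understates changes of low genes, with limma 3.58.1 in R 4.3.3 (group means, eBayes with trend, two-sided tests, Benjamini-Hochberg adjustment). The samples are separate mice. The code was tested on simulated data. The named genes were all 10 genes, genes of the role lists called for activity or genotype, the 3 genes nearest in pattern, and some uncalled list genes given by their values. The genes and lists were chosen with earlier results of these data known. Positions came from an annotation of the same build, with all 10 genes found, Park2 in 2 models. Alternatives changed the pseudocount, minimum mean, scaling, weights, covariates, block and mice.

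Titles number the mice 1 to 3 in every group. Between IM and AM, mice sharing a number had deviations from their group means that correlated at 0.171 to 0.322 across genes, which are not independent, and those of the other pairs of groups at -0.605 to 0.484, so only IM and AM met the pairing criterion of over 0.1 in every pair. Reads shared by near-identical or overlapping genes may have been split by the counting.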

Additional observations from a re-analysis of the deposited data

How the results depend on the processing

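Numbers of called genes were 1051 for activity, 419 for genotype, 0 for interaction, 2 for activity within wild-type, 568 for activity within myostatin-reduced, 182 for genotype within inactive, 15 for genotype within active and 423 for the slow-fibre score. Called genes of the 9 numbered 2 for activity, 1 for activity within myostatin-reduced mice, 1 for the slow-fibre score and 0 in the other comparisons. With a minimum mean of 50, the called genes numbered 272 for genotype, 39 for activity within wild-type and 7 for genotype within active. With median-ratio scaling, the called genes numbered 1 for activity within wild-type. With sample weights, the called genes numbered 1740 for activity, 415 for activity within wild-type, 931 for activity within myostatin-reduced and 334 for genotype within inactive, and called genes of the 9 2 for activity within wild-type. With the slow-fibre covariate, the called genes numbered 401 for activity, 28 for activity within wild-type, 187 for activity within myostatin-reduced, 115 for genotype within inactive and 29 for genotype within active, and called genes of the 9 1 for activity and 0 for activity within myostatin-reduced. With the replicate block, the called genes numbered 0 for activity within wild-type, 98 for genotype within inactive and 9 for genotype within active. With only the compared groups in the fit, the called genes numbered 0 for activity within wild-type and 6 for genotype within active, and called genes of the 9 0 for activity within myostatin-reduced. Over the fits that each left out 1 mouse, called genes ranged 552 to 1488 for activity, 182 to 573 for genotype, 0 to 1 for interaction, 0 to 198 for activity within wild-type, 86 to 1098 for activity within myostatin-reduced, 23 to 216 for genotype within inactive, 4 to 18 for genotype within active and 31 to 804 for the slow-fibre score, and called genes of the 9 1 to 2 for activity, 0 to 2 for activity within myostatin-reduced and 0 to 1 for the slow-fibre score. The cause of these shifts was not tested.

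No called value of the 9 genes changed sign. Uncalled values near 0 did so with median-ratio scaling, for interaction Becn1 (0.0018). They did so with quantile normalization, for interaction Becn1 (0.0046) and Sqstm1 (0.0022). They did so with sample weights, for interaction Becn1 (0.049), Sqstm1 (0.069) and Ctsl (-0.0083), for genotype within inactive Ctsl (0.00096), for genotype within active Ulk1 (0.013) and Ctsl (-0.0074). They did so with the slow-fibre covariate, for activity Gabarapl1 (-0.0087), for genotype Ctsl (0.027), for interaction Becn1 (0.039), Sqstm1 (0.055) and Ctsl (-0.0021), for activity within wild-type Gabarapl1 (-0.041), for activity within myostatin-reduced Becn1 (0.0071), for genotype within inactive Sqstm1 (-0.027), Bnip3 (0.0032) and Ctsl (0.028). Others changed sign between fits that left out a mouse (82 of 864 values, in 29 results, none of them called), with the ranges that follow on the log2 scale. For activity these were Map1lc3b -0.042 to 0.045. For genotype these were Ctsl -0.021 to 0.019, Ulk1 -0.061 to 0.039 and Bnip3 -0.055 to 0.017. For interaction these were Becn1 -0.056 to 0.046, Sqstm1 -0.15 to 0.070, Bnip3l -0.0021 to 0.11, Bnip3 -0.094 to 0.050, Ulk1 -0.10 to 0.10, Map1lc3a -0.059 to 0.077, Ctsl -0.020 to 0.060 and Map1lc3b -0.014 to 0.16. For activity within wild-type these were Gabarapl1 -0.092 to 0.11. For activity within myostatin-reduced these were Bnip3l -0.082 to 0.030 and Map1lc3b -0.049 to 0.13. For genotype within inactive these were Bnip3 -0.050 to 0.029, Ulk1 -0.11 to 0.087 and Ctsl -0.038 to 0.021. For genotype within active these were Ulk1 -0.051 to 0.021, Becn1 -0.10 to 0.0063, Ctsl -0.031 to 0.049, Gabarapl1 -0.17 to 0.043, Bnip3 -0.10 to 0.042, Map1lc3b -0.11 to 0.063 and Sqstm1 -0.042 to 0.18. For the slow-fibre score these were Map1lc3a -0.021 to 0.0047, Ulk1 -0.028 to 0.010, Bnip3 -0.024 to 0.042 and Map1lc3b -0.032 to 0.0081. The replicate block left 2 of the 9 genes called for activity and 1 within myostatin-reduced mice, with 628 genes there, and changed no call among the 9. Pseudocounts of 0.1 and 10, no minimum mean and eBayes without trend moved no call or sign among them. The slow-fibre score coefficient and the Park2 values were chosen after seeing the data. The shallow depth of Park2 and 3 mice per group limit what differences could be resolved.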
